A study of Mus musculus with 4 samples.

Results

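Spots of the injured neonatal mouse heart that were rich in Ankrd1, Nppb and Acta1, 3 cardiomyocyte stress genes, were examined outside the matrix-rich spots of each section. In each section, spots with 500 or more UMIs (unique molecular identifiers, each counting 1 captured transcript) were kept, and the 10% of spots devoting most of their UMIs to Col1a1, Col1a2, Col3a1, Postn, Fn1 and Tnc were set aside as matrix-rich. Of the remaining spots, the 10% with the largest summed share of Ankrd1, Nppb and Acta1 were chosen. This gave 276 spots of the 3056 kept in all, which were 40 of 445, 60 of 662, 70 of 774 and 106 of 1175 in the sections taken 1, 4, 7 and 14 days after injury. They are called the rich spots below, and the other 361, 536, 627 and 951 remaining spots are called the other spots.

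The sections came from hearts of ICR mice that all received the same cryoinjury at postnatal day 1, made by holding a cooled probe to the left ventricular apex for 5 seconds. The time points are labelled d1, d4, d7 and d14, read here as days after injury, so that age ran together with time since injury. Each time point was 1 fresh frozen section of 10 µm on a Visium array, a slide of barcoded spots that each capture RNA from a small patch holding several cells. No genetic change or drug is labelled for these hearts, and none of the sections is labelled as uninjured, so values within a section were compared only with other spots of that section.

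Ankrd1 encodes a titin-associated ankyrin repeat protein of the sarcomere and nucleus, Nppb encodes brain natriuretic peptide, and Acta1 encodes skeletal alpha-actin, an actin isoform of the fetal heart. In ventricular cardiomyocytes under mechanical load or injury, these genes are known to be switched on together with other genes of the fetal program, such as Nppa for atrial natriuretic peptide. Cardiomyocytes bordering an infarct are known for this program, often with lower levels of genes for contraction and for oxidation of fatty acids. Yap with TEAD factors, SRF and GATA4 are among the regulators described for these genes.

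The promoter sequences of the scoring genes and of Nppa, the most abundant gene that was higher in the rich spots of every section, are shown because these 4 genes define or lead the comparison. Each is the 250 bases before the RefSeq transcript start on GRCm38.p6, written 5′ to 3′ on the gene's strand, with capitals for matches to 4 motifs searched on both strands. The motifs were CATTCC (the MCAT element of TEAD factors), the CArG box of SRF, GATAA (GATA factors) and TGANTCA (AP-1). The windows are chr19:36119845-36120094 on the minus strand for Ankrd1, chr4:147985650-147985899 on the plus strand for Nppb, chr8:123894776-123895025 on the minus strand for Acta1 and chr4:148000472-148000721 on the plus strand for Nppa.
Ankrd1: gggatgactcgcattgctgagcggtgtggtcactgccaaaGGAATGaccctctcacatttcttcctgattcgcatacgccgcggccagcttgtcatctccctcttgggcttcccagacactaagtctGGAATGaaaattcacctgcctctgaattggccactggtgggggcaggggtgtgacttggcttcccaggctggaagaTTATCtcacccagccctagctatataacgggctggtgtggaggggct
Nppb: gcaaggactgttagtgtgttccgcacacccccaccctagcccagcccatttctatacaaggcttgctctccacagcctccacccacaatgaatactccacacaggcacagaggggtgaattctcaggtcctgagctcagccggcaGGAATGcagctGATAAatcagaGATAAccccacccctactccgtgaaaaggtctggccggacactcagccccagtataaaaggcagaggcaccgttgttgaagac
Acta1: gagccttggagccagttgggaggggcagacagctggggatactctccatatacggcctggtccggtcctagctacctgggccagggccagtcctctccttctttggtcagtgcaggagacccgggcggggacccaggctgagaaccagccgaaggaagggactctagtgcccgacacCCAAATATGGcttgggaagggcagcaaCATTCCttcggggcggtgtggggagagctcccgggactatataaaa
Nppa: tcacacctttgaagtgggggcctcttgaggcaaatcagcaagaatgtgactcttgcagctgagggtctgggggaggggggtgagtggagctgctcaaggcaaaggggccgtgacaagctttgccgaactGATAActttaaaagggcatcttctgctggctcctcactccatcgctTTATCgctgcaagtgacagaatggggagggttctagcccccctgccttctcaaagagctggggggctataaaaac

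The MCAT letters occurred 2 times in the Ankrd1 window and 1 time each in the Nppb and Acta1 windows, and 12.6% of the 32851 mouse promoters of the same length held them. A CArG box, present in 1.47% of promoters, was found in the Acta1 window only among the 4 genes. GATAA, present in 22.6% of promoters, occurred 1 time before Ankrd1, 2 times before Nppb and 2 times before Nppa. TGANTCA, present in 6.75% of promoters, matched none of the 4 windows. None of these matches overlapped another. The same search covered the 14 genes higher in 3 or more sections and not used to choose spots, of which 10 were matched to promoters. MCAT occurred before 1 of these 10, the CArG box before 0, GATAA before 3 and TGANTCA before 2. A match describes the letters of the window and says nothing of whether a factor was bound there.

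The rich spots had a median of 7552.5, 16926, 8118.5 and 3973.5 UMIs in time order, against 7975, 7183.5, 8125 and 3724 in the other spots. At d4 they were therefore much deeper than the rest of the section, while the medians lay close together in the other sections. The mitochondrial share of their UMIs was 5.75%, 4.34%, 10.9% and 8.79% in time order, against 5.68%, 5.85%, 12.2% and 8.97%. Of 1328 distinct spot barcodes, 247 occurred in all 4 sections, as positions of 1 array design do. All 16 genes of the sarcomere core list were detected in the rich spots of every section, with summed levels of 61957 to 96906 CPM (UMIs per 1000000, without haemoglobin, mitochondrial and scoring genes in the total).

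The 3 scoring genes chose the spots, so their levels are a description. Ankrd1 stood at 1709, 2524, 3611 and 1648 CPM in the rich spots of the successive sections, against 309, 1111, 1863 and 322 in the other spots. Ankrd1 was thus widespread at d4 and d7: 1.87% and 0.159% of the other spots had no Ankrd1 UMI, against 26.6% at d1 and 40.1% at d14. Nppb stood at 314, 468, 447 and 675 CPM in the rich spots and at 68.8, 92.3, 223 and 108 in the other spots. Acta1 stood at 499, 834, 385 and 1362 CPM against 62.8, 79.4, 98.3 and 130, and d14 had the highest Acta1 level in the rich spots. Measured in UMIs that had not been used to choose the spots (a random split into 2 parts), the Ankrd1 ratio of rich over other spots was 4.67, 2.09, 1.55 and 4.18 in time order.

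**Figure D1:**
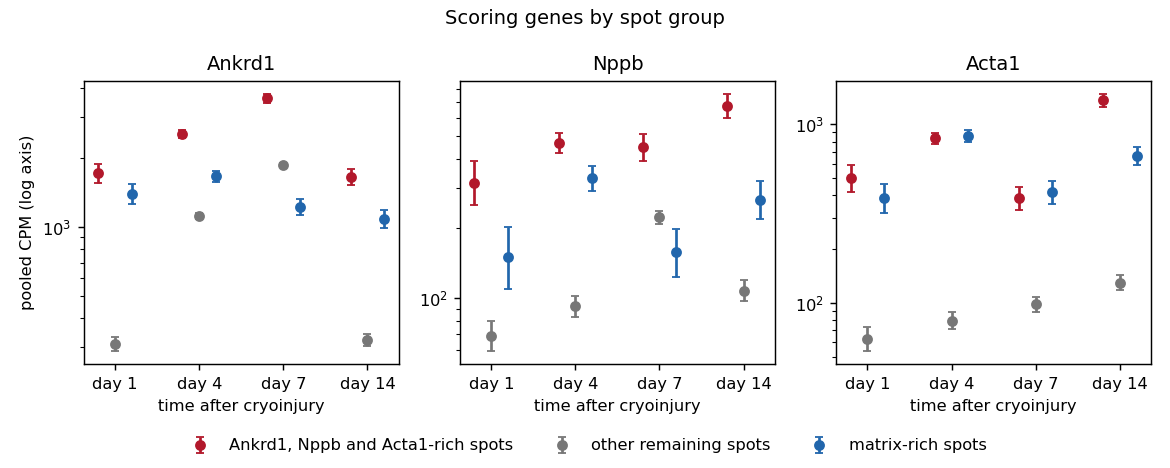
Pooled CPM (log axis) of Ankrd1, Nppb and Acta1 by section in the rich, other and matrix-rich spots, with exact Poisson 95% intervals for counting error. The rich spots lie above the other spots for each gene in each section, which follows from their selection on the sum of the 3 genes, and Acta1 in the matrix-rich spots at d4 (859 CPM) is close to its level in the rich spots (834 CPM).

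The matrix-rich spots that were set aside also held the scoring genes. Their Ankrd1 level was 1386, 1660, 1221 and 1085 CPM in time order, below the rich spots in every section and below the other spots at d7. Of the matrix-rich spots, 68.2%, 39.4%, 9.09% and 38.1% had a score above the cut of their section. The score, in UMIs of the 3 genes per 10000, ran in the rich spots from 11.0 to 138 with a median of 16.8 at d1, and from 23.7 to 97.1 with a median of 32.1 at d4. At d7 it ran from 33.2 to 61.7 (median 37.3), and at d14 from 17.3 to 111 (median 27.7). The lowest rich spot and the highest other spot were nearly equal, at 11.0 and 10.9, 23.7 and 23.6, 33.2 and 33.1, and 17.3 and 17.2.

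The 3 genes did not contribute alike. Ankrd1 supplied 67.7%, 66.0%, 81.3% and 44.7% of the rich spots' score UMIs in time order, and Acta1 supplied 19.8%, 21.8%, 8.67% and 37.0%. At d7, 81.4% of the rich spots were also in the top 10% by Ankrd1 alone, 40% by Nppb alone, 38.6% by Acta1 alone and 7.14% by each of the 3 genes. At d4 and d14, 31.7% and 29.2% were in the top 10% by each of the 3 genes, and at d1 20%. At d1 and d4, 77.5% and 83.3% were in the top 10% by Ankrd1 alone. The rich spots of d14 were more often high in Acta1 (74.5%) than in Ankrd1 (60.4%). The matrix genes behind the first step remained detectable: 40%, 48.3%, 32.9% and 50% of the rich spots lay above the upper quartile of the other spots for the summed matrix share.

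Each gene was then compared between the pooled UMIs of the rich and the other spots of the same section. With 1 section per time point no test was possible. A gene was called higher or lower when it had 20 or more CPM over the remaining spots, the ratio reached 1.5 in favour of either side, and its exact binomial 95% interval, which covers counting error only, excluded 1. The minimum is over both groups together, so a gene below it in 1 group and above it in the other had to differ. Such a gene is marked as passing through the rich spots, and its call supports nothing further. The list counts given further on include 1 such gene each for the Yap and SRF list at d4 (Cnn1), the matrix list at d4 (Timp1) and d14 (Thbs4), the fibroblast list at d14 (Meox1) and the proliferation list at d7 (Aurka). Mdm2, Cdkn1b, Lpin1, S100a9 and Slc26a10 had such lower calls, passing through the other spots, at d1, d1, d4, d4 and d7 respectively. Spots of a section share 1 heart and were not treated as replicates, and fewer cells of a type in a spot cannot be told apart from less RNA per cell.

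At d1, 226 of 6279 genes were higher (3.6%) and 142 were lower (2.26%). At d4, 212 of 6983 were higher (3.04%) and 381 were lower (5.46%), the section in which the rich spots were deeper. At d7, 124 of 6290 were higher (1.97%) and 101 were lower (1.61%). At d14, 228 of 6173 were higher (3.69%) and 149 were lower (2.41%). In either direction, 5.86%, 8.49%, 3.58% and 6.11% of the measured genes were called. The balance of directions turned with the scaling at d1, d7 and d14: higher calls made up 61.4%, 35.8%, 55.1% and 60.5% of calls in time order, and 42.1%, 39.5%, 35.1% and 39.8% with TMM factors. The median log2 ratio of all measured genes was -0.00, -0.05, 0.01 and 0.02, and with TMM factors -0.09, -0.04, -0.05 and -0.08.

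Few genes were called in more than 1 section. Of the 5339 genes measured in all 4 sections, 2 were higher in every one, Nppa and Clu, and none was lower in every one. Over all features, 14 were higher in 3 sections, including the matrix genes Postn and Col1a2 that had served in the first step, and Slc26a10, a member of an anion transporter family, was lower in 3. Among genes measured in both sections, 35 were higher at both d1 and d4, 15.98% of those of d1 and 21.0% of those of d4. At d4 and d14 there were also 35 in common, 23.2% and 16.5%, and at d1 and d7 there were 6, 2.88% and 5.66%. Of all measured genes, 3.6%, 3.04%, 1.97% and 3.69% were higher at d1, d4, d7 and d14. The overlap of d1 and d7 thus lay near the share of all genes.

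Nppa, which encodes atrial natriuretic peptide and lies beside Nppb on chromosome 4 (chr4:148000722-148002079, plus strand, GRCm38), was the most abundant of the higher genes. Its level in the rich spots was 3973, 19493, 1264 and 9598 CPM in time order, against 976, 2254, 251 and 1133 in the other spots. The rich spots were higher in every section, with ratios of 4.07 (95% interval 3.79 to 4.37), 8.65 (8.43 to 8.87), 5.04 (4.57 to 5.55) and 8.47 (8.10 to 8.86). The gene was widely shared among the rich spots except at d7. A UMI of Nppa was found in 97.5%, 96.7%, 52.9% and 91.5% of them, against 83.9%, 97.6%, 35.1% and 72.7% of the other spots. Per spot, the rich spots had median levels of 2063 (0 to 18155), 14465 (0 to 46477), 115 (0 to 19543) and 6600 CPM (0 to 34768) in time order.

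Single spots of the groups overlapped in every section. The rich spots above the 90th percentile of the other spots were 20 of 40, 51 of 60, 20 of 70 and 74 of 106 in time order. At d7 the level rested on few spots, since 5 of the 70 held 62.3% of the Nppa UMIs, against 17.6% in 5 spots at d14. The d7 ratio also moved with the choice of spots: it was 8.53 without spots holding 2 or more skeletal muscle UMIs, 8.40 with Ankrd1 and 7.93 with Nppb left out of the score, and 3.28 with spots thinned to 2500 UMIs. In the matrix-rich spots Nppa stood at 2380, 16862, 2078 and 7183 CPM, below the rich spots at d1, d4 and d14 and above them at d7.

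**Figure D2:**
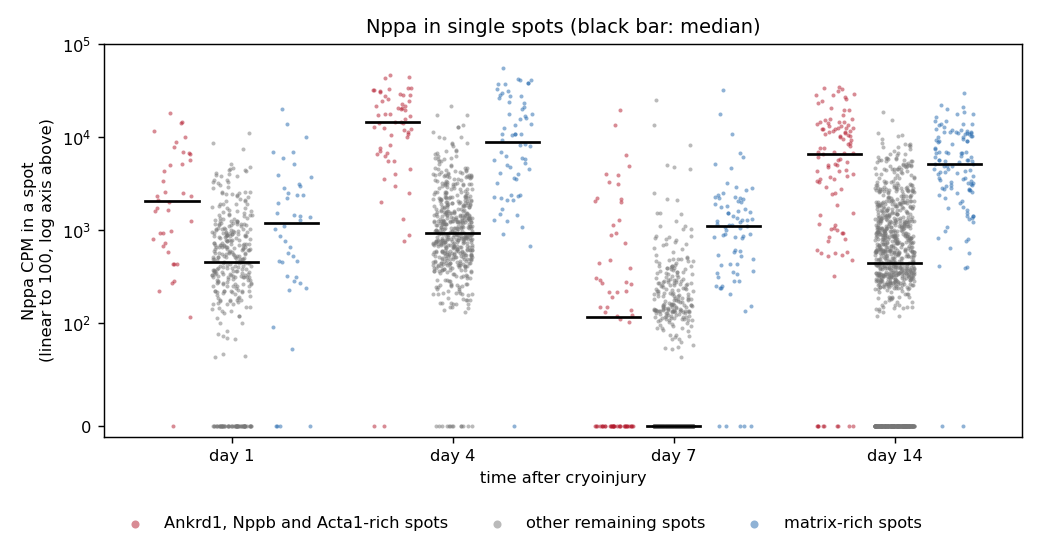
Nppa CPM in each spot (1 point per spot, axis linear to 100 and logarithmic above) by section for the rich, other and matrix-rich spots, with black bars at the medians. The rich spots reach a median of 14465 CPM at d4 and 6600 at d14, while at d7 their median is 115 and many spots sit at 0.

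Clu encodes clusterin, a secreted chaperone known to be induced in injured tissue. It stood at 477, 761, 240 and 638 CPM in the rich spots and at 107, 144, 112 and 262 in the other spots. The ratios were 4.44 (3.58 to 5.49), 5.28 (4.72 to 5.90), 2.15 (1.75 to 2.62) and 2.43 (2.11 to 2.80), all called higher. Unlike Nppa, Clu was highest in the matrix-rich spots of each section, at 2149, 1976, 563 and 934 CPM. The d1 ratio became 15.0 with no matrix-rich spots set aside and 2.80 with the top 20% of spots chosen. The d7 ratio became 3.48 with Ankrd1 left out of the score, and with spots thinned to 2500 UMIs it became 1.40 and was no longer called. At d1 and d7, 5 rich spots held 49.6% of the Clu UMIs in both sections.

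Further genes of stressed heart muscle were higher in 3 sections. Xirp2, which encodes an actin-binding protein of the intercalated disc, stood at 29.6, 147, 107 and 128 CPM in the rich spots and at 10.9, 24.8, 51.2 and 64.8 in the other spots. Its ratio was 5.91 at d4 (4.54 to 7.73), 2.09 at d7 and 1.98 at d14, and at d1, where it was under the gene minimum, 2.72 from 8 UMIs. Tnfrsf12a, the receptor of the cytokine TWEAK, stood at 137, 234, 191 and 150 CPM against 54.9, 113, 158 and 76.1. It was higher at d1 (2.49), d4 (2.06) and d14 (1.98), and at d7 the ratio was 1.21, while thinning turned the d1 ratio to 0.814. Its rich-spot level was above that of the matrix-rich spots in each section (103, 218, 164 and 133 CPM), but the counting intervals overlapped in each. Xirp2 went the other way, at 58.5, 285, 108 and 133 CPM in the matrix-rich spots, close to its rich-spot level at d7 and d14. Ccn2 (402, 660, 444 and 451 CPM) and Tpm2 (131, 382, 234 and 204 CPM), taken up below, also stood higher there than in the rich spots.

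The list of 12 stress and fetal cardiomyocyte genes other than the scoring genes held 4 higher genes of 11 measured, then 7 of 12, 3 of 12 and 4 of 9 in time order, where 3.6%, 3.04%, 1.97% and 3.69% of all measured genes were higher. Its median log2 ratio was 0.30, 0.63, 0.24 and 0.49, and it was -0.05 at d7 with thinned spots. Within it, Actc1, the cardiac alpha-actin, stood at 17092, 12155, 13747 and 15199 CPM in the rich spots with ratios of 1.18, 1.21, 1.05 and 1.03, and none was called. Myh7, the slow fetal myosin heavy chain, had ratios of 1.15, 0.98, 1.07 and 1.41, also not called. Tnni1, the fetal troponin I, went the other way at d4, where it was lower (1162 against 1965 CPM, ratio 0.591). Nppa, Clu, Xirp2 and Tnfrsf12a supplied most of the list's calls. Pdlim3, a Z-line LIM protein, was higher at d1 (2.02) and d4 (1.51), and Uchl1, a deubiquitinating enzyme, at d4 (1.58). After thinning the d1 ratio of Pdlim3 was 0.654.

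**Figure D3:**
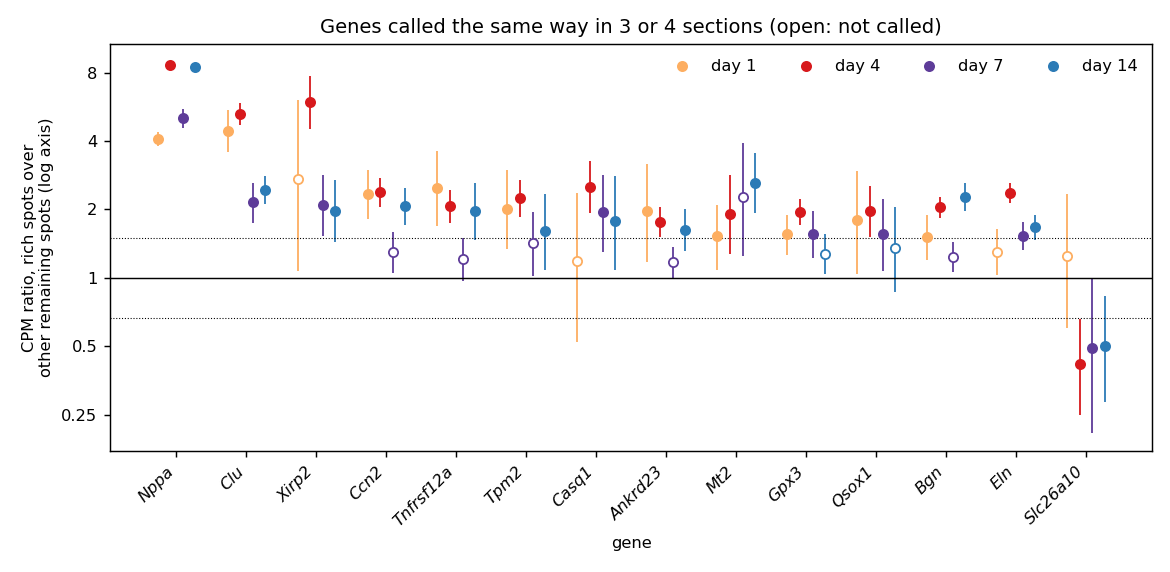
CPM ratio of rich over other spots (log axis) with exact binomial 95% intervals for 14 genes called the same way in 3 or 4 sections and not used to choose spots; filled points were called, open points were not, and dotted lines mark the fold limits. Nppa reaches 8.65 at d4 and 8.47 at d14, and d7 (purple) has more open points than each of the other sections.

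Genes of the Z-disc and of titin-based strain sensing include close relatives of the scoring gene Ankrd1. Ankrd23, its ankyrin repeat relative that binds titin, stood at 77.7, 271, 351 and 264 CPM in the rich spots against 39.5, 153, 300 and 162, and was higher at d1 (1.97), d4 (1.77) and d14 (1.63). At d7 its ratio was 1.17. The list of 19 genes had 18 measured in each section, of which 1, 3, 0 and 3 were higher (3.6%, 3.04%, 1.97% and 3.69% of all measured genes) and Fbxo32, a muscle ubiquitin ligase, was lower at d4 (0.612, and 1.07 after thinning), with medians of 0.14, 0.14, -0.01 and 0.01. The d1 median turned to -0.08 with thinned spots and -0.07 with no matrix-rich spots set aside, the d14 median to -0.09 with TMM factors, and the d7 median to 0.01 with all genes in the total. Fhl1, a LIM protein of the titin spring region, was higher at d4 (259 against 143 CPM, 1.81) and d14 (224 against 132 CPM, 1.70). Des, the desmin filament gene, was higher at d4 (1015 against 647 CPM, 1.57). Csrp3, the muscle LIM protein, had ratios of 1.24, 1.25, 0.98 and 1.08 and was not called. Fhl2, another LIM protein of heart muscle, had ratios of 0.897, 0.703, 0.829 and 0.823, all below 1 and none called.

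The sarcomere core list holds the main contractile proteins of the cardiomyocyte and the calcium pump with its inhibitor. Its 16 genes had median log2 ratios of -0.04, -0.28, -0.09 and -0.15, and the d1 median was 0.02 with means over spots. At d4, 2 of them were lower, where 5.46% of all measured genes were. Atp2a2, the calcium pump of the sarcoplasmic reticulum, stood at 2787 against 4652 CPM (0.599, 0.574 to 0.625). Pln, its inhibitor phospholamban, stood at 2538 against 3874 CPM (0.655, 0.627 to 0.685). In the other sections the Atp2a2 ratio was 0.817, 0.888 and 0.775 and that of Pln 0.903, 0.856 and 0.812, and none was called. Myh6, the adult alpha-myosin heavy chain, had ratios of 0.961, 0.709, 0.929 and 0.888, and Tnnt2, cardiac troponin T, 0.954, 0.761, 0.931 and 0.914, below the fold limit. Casq1, the calsequestrin best known from fast skeletal muscle, was higher at d4 (102 against 40.5 CPM, 2.51), d7 (1.95) and d14 (1.78). Tpm2, beta-tropomyosin, was higher at d1 (2.02), d4 (2.24) and d14 (1.61, kept in 9 of 15 alternatives), and at d7 its ratio was 1.42. Cacna1c, the cardiac L-type calcium channel, was lower at d4 (73.9 against 158 CPM, 0.467), and the potassium channel subunit gene Kcne1 at d14 (66.5 against 129 CPM, 0.516).

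Skeletal muscle marker genes were counted beside these because Acta1, Casq1 and Tpm2 are also skeletal muscle genes. The 15 markers together had 2, 13, 10 and 2 UMIs in the rich spots, and the fast myosin gene Myh4 and Myog were at 0 in each section. Casq1 thus stood far above the whole marker list, whose sum was 7.40, 14.5, 19.8 and 4.93 CPM. Atrial markers were also counted, since Nppa is abundant in atria. Of the 11 atrial markers 5, 4, 4 and 3 were measured. At d4, 3 of the 4 were higher (3.04% of all measured genes), Nppa, Dkk3 (1.85) and Myl4, and in the other sections only Nppa was. Sln and Fgf12 were at 0 in the rich spots of every section, and Bmp10 at d4, d7 and d14. Myl4, an atrial and fetal myosin light chain, was higher at d4 (192 against 60.6 CPM, 3.18). A UMI of Myl7 was found in 20%, 25%, 0% and 1.89% of the rich spots in time order. In the other spots the shares were 24.9%, 3.36%, 0.957% and 0.210%. The share was larger in the rich spots at d4 and d14. At d14 it rested on very few spots in both groups. At d4 the rich spots were deeper, with a median of 16926 against 7183.5 UMIs, and depth raises detection. The part of atrial tissue in these values was not tested. Without the 10% of spots richest in the atrial markers other than Nppa, Nppa ratios were 3.50, 7.66, 4.51 and 7.26.

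The list of 24 fatty acid oxidation genes had median log2 ratios of -0.22, -0.26, -0.13 and -0.28 and no higher gene in any section. Lower genes on it included Mlycd, malonyl-CoA decarboxylase, at d1 (115 against 190 CPM, 0.604), and Decr1, an auxiliary enzyme for unsaturated fatty acids, at d14 (350 against 534 CPM, 0.655). Acaa2, the last enzyme of the beta-oxidation cycle, had ratios of 0.798, 0.694, 0.910 and 0.821, and Fabp3, the fatty acid carrier of heart muscle, 0.889, 0.906, 0.984 and 0.886. The medians of this list kept their sign under every alternative run.

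The 24 respiratory chain genes had medians of -0.14, -0.09, -0.06 and -0.16 with no call in any section. Glycolysis genes showed no common direction, with medians of 0.17, 0.12, -0.03 and 0.02, those of d4, d7 and d14 changing sign under other settings, d14 to -0.08 with TMM factors. Among them Slc2a1, the fetal glucose transporter, was higher at d1 (77.7 against 39.1 CPM, 1.99) and Pgam1 at d4 (1.77). Slc2a4, the insulin-responsive glucose transporter, was lower at d4 (72.7 against 127 CPM, 0.573), and Hk2 at d7 (0.543). Gpx3, a secreted glutathione peroxidase, was higher at d1 (425 against 274 CPM, 1.56), d4 (1.95) and d7 (1.56), and its d7 ratio was 0.882 with thinned spots. Its calls at d1 and d7 were each kept in 8 of 15 alternatives. Mt2, a metallothionein that binds zinc, was higher at d1 (1.53, kept in 8 of 15 alternatives), d4 (1.92) and d14 (143 against 54.4 CPM, 2.63). Slc26a10 was lower at d4 (0.417), d7 (0.492, from 8 UMIs) and d14 (0.503), and its d7 ratio was 1.22 when spots were chosen on 1 random part of the UMIs and measured in the other.

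**Figure D4:**
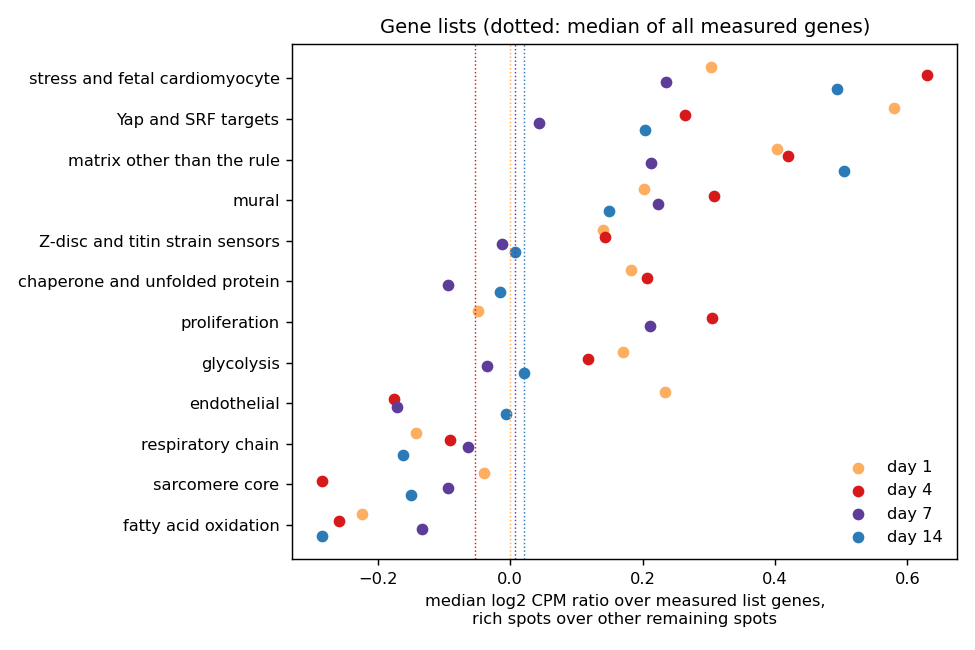
Median log2 CPM ratio of rich over other spots for 12 gene lists by section, with dotted lines at the median of all measured genes; a point is shown where 5 or more list genes were measured. The stress, Yap and SRF, and matrix lists lie to the right and the fatty acid oxidation and sarcomere lists to the left, with the widest spread between sections for the Yap and SRF list (0.04 at d7 to 0.58 at d1).

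Targets of Yap and of SRF, which respond to tension on the cytoskeleton, had their largest list median at d1. Of 17 measured at d1, 6 were higher (3.6% of all measured genes) with a median of 0.58. At d4 6 of 20 were higher (3.04% of all) and 1 was lower, with a median of 0.26. At d7 and d14, 1 gene of 18 and of 17 was higher, near the 1.97% and 3.69% of all measured genes, with medians of 0.04 and 0.20, and the d7 median turned to between -0.01 and -0.04 with TMM factors, with Nppb or Acta1 left out of the score and with means over spots. Ccn2, the matricellular protein also called connective tissue growth factor, stood at 314, 307, 214 and 340 CPM in the rich spots and at 135, 129, 165 and 165 in the other spots. It was higher at d1 (2.34, 1.82 to 2.97), d4 (2.38, 2.05 to 2.76) and d14 (2.07, 1.70 to 2.49), and at d7 its interval ran from 1.05 to 1.59 without reaching the fold limit. Its relative Ccn1 was higher at d1 (2.17) and d4 (1.84). Amotl2, a Yap-binding junction protein, was higher at d1 (1.94) and lower at d4 (0.568), but was 0.907 at d1 with Ankrd1 left out of the score and 1.07 at d4 after thinning. Genes of smooth muscle contraction on this list were higher at d4: Tagln at 71.6 against 33.1 CPM (2.16), Myl9 at 916 against 474 (1.93) and Acta2 at 496 against 283 (1.75). Cnn1 stood at 92.9 against 14.1 CPM (6.60) and passed the minimum through the rich spots.

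Those contraction genes are also expressed by mural cells of vessels. The summed level of the 11 mural markers was 1.28, 1.45, 1.20 and 1.16 times that of the other spots, and of the 10 measured at d4 4 were higher (3.04% of all measured genes), namely Des, Myl9, Tagln and Acta2. Rgs5, a pericyte gene, had ratios of 1.03, 0.894, 1.02 and 1.03. The part of mural cells in the contraction genes was not tested. Endothelial markers were nearly level in sum, with ratios of 0.947, 0.956, 0.939 and 1.01, while their median log2 ratios were 0.23, -0.18, -0.17 and -0.01. Of those measured, 2 of 13, 0 of 14, 1 of 13 and 0 of 14 were higher, against 3.6%, 3.04%, 1.97% and 3.69% of all measured genes. These were Eng and Vwf at d1 and Eng at d7, and Tie1 was lower at d4.

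Matrix genes other than the 6 used to set spots aside were higher in part. Of those measured, 3 of 19, 6 of 20, 2 of 18 and 7 of 18 were higher in time order, against 3.6%, 3.04%, 1.97% and 3.69% of all measured genes, with medians of 0.40, 0.42, 0.21 and 0.50 and none lower. The first step took away the spots with most matrix, which limits how high these genes could be. Bgn, the small proteoglycan biglycan, stood at 329, 580, 389 and 648 CPM against 217, 284, 315 and 285 and was higher at d1 (1.52), d4 (2.04) and d14 (2.28). Its d1 call was kept in 6 of 15 alternatives. Eln, elastin, stood at 314, 682, 447 and 687 CPM against 241, 288, 292 and 412 and was higher at d4 (2.36), d7 (1.53) and d14 (1.67). Its d7 call was kept in 8 of 15 alternatives. The matrix-rich spots held far more Eln, at 5465, 10016 and 3520 CPM from d4 to d14, and with no matrix-rich spots set aside the d7 ratio was 0.646.

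Thbs4, a thrombospondin of stressed heart and tendon, stood at 143 against 10.7 CPM at d14 (13.3, 8.69 to 20.7), where it passed the minimum through the rich spots, and was also higher at d4 (91.8 against 31.2 CPM, 2.94). Timp1, an inhibitor of matrix metalloproteinases, was higher at d1 (81.4 against 23.7 CPM, 3.44) and d4 (2.09, passing the minimum through the rich spots). Col8a1, a short-chain collagen, was higher at d14 (108 against 26.9 CPM, 4.03). Mgp, which restrains calcification, was higher at d4 (490 against 184 CPM, 2.66) and d14 (2226 against 1137 CPM, 1.96). Postn, which chose the matrix-rich spots and is given as a description, stood at 396, 1055, 719 and 310 CPM against 175, 656, 567 and 156.

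Fibroblast markers were also counted. Their summed level was 0.917, 1.10, 1.19 and 1.05 times that of the other spots, and 0 of 9, 2 of 11, 1 of 11 and 4 of 12 measured markers were higher, against 3.6%, 3.04%, 1.97% and 3.69% of all measured genes, with Mfap5 lower at d4. Meox1, a transcription factor known from activated fibroblasts, was higher at d4 (77.2 against 28.8 CPM, 2.68) and d14 (59.1 against 15.9 CPM, 3.72, passing the minimum through the rich spots). Dcn, a general fibroblast gene, had ratios of 0.779, 1.10, 1.18 and 1.05. The part of fibroblasts in the matrix values was not tested. Macrophage markers summed to 1.37 (1.18 to 1.60), 1.23 (1.06 to 1.43), 1.02 (0.865 to 1.20) and 1.24 (1.11 to 1.38) times the level of the other spots. Of the 19 markers 10, 3, 5 and 9 were measured, and none was called. Neutrophil markers were below the other spots, with summed ratios of 0.686 (0.478 to 0.958), 0.307 (0.160 to 0.537), 0.258 (0.0523 to 0.774) and 0.491 (0.221 to 0.957). These sums rested on 37, 13, 3 and 9 UMIs in the rich spots, and 2, 1, 0 and 1 of the 8 markers were measured. S100a9 was lower at d4 (2 UMIs, 2.24 against 26.2 CPM, 0.0854, 0.0102 to 0.316) and 1.03 after thinning.

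Egr1, an immediate early transcription factor and the gene of the series title, was not called in any section. At d1 and d14 it was under the gene minimum and could not be called. At d4 it stayed without a call in 13 of 15 alternatives, with ratios from 1.33 to 1.79 over all of them. It stood at 7.40, 74.98, 67.5 and 14.8 CPM in the rich spots, from 2, 67, 34 and 6 UMIs, and at 10.1, 53.2, 68.0 and 8.68 in the other spots. The ratios were 0.729 (0.084 to 2.90), 1.41 (1.06 to 1.86), 0.993 (0.675 to 1.42) and 1.70 (0.580 to 4.16), so that at d1 and d14 a difference of the fold limit was not detectable at this depth. Egr1 was highest in the matrix-rich spots of each section, at 68.8, 129, 99.6 and 41.2 CPM. Of 24 immediate early genes, 11, 13, 17 and 13 were measured. Only Ier5 and Dusp6 at d14 were higher, where 3.69% of all measured genes were. Klf4 at d4 and Fosl2 at d7 were lower, where 5.46% and 1.61% of all measured genes were. The summed level of the list was 1.06, 1.09, 0.938 and 1.24 times that of the other spots in time order, with an interval of 1.12 to 1.37 at d14.

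Cdkn1a, the p21 inhibitor of the cell cycle that serves as a senescence marker, was higher at d4 (42.5 against 26.7 CPM, 1.59, 1.07 to 2.32) and had ratios of 1.46, 1.10 and 1.33 at d1, d7 and d14. The d4 call was lost in 5 of 15 alternatives. Within the senescence and p53 list, Mdm2 (0.339, from 4 UMIs) and Cdkn1b (0.232, 0.0276 to 0.863, from 2 UMIs) were lower at d1, and Trp53 (2.07) was higher at d14. Agrn, the matrix protein agrin, had ratios of 1.20, 0.759, 1.21 and 1.296 and was not called. Of 14 proliferation genes measured at d1, Ube2c (2.03) was higher and Mcm6 (0.536) lower, against 3.6% and 2.26% of all measured genes. The median was -0.05, and 0.12 with no matrix-rich spots set aside. At d4, 3 of 22 were higher (3.04% of all measured genes), Plk1 (1.83), Ccnb1 (1.64) and Birc5 (1.53), with a median of 0.31. The median was 0.21 at d7, where Aurka (1.82, and 0.898 after thinning) was higher, passing the minimum through the rich spots. The d7 median turned to -0.14 with thinned spots and -0.13 with Ankrd1 left out of the score, and at d14 only 1 of the 24 genes was measured.

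Further called genes fell into smaller groups. At d1 the growth regulator genes H19 (947 against 562 CPM, 1.68) and Igf2 (747 against 492 CPM, 1.52, and 0.868 after thinning), neighbours under common imprinting control, were higher. Igfbp5, which binds the growth factor encoded by Igf2, was also higher at d1 (259 against 133 CPM, 1.94). H19 and Igf2 were 2 of the 11 measured genes of the imprinted growth list, where 3.6% of all measured genes were higher. At d14, 4 of its 9 measured genes were higher, Mest (1.76), Peg3 (1.95), Ndn (1.77) and Meg3 (1.82), where 3.69% of all measured genes were, and the list median was 0.13 (-0.05 with the 100 CPM minimum). At d4 none of 11 was higher and Plagl1 was lower (0.587, and 1.21 after thinning). Tubb2a, a beta-tubulin, was higher at d1 (1.52) and d4 (176 against 85.3 CPM, 2.06). Qsox1, which forms disulfide bonds in secreted proteins, was higher at d1 (1.80), d4 (1.96) and d7 (1.57), with 0.962 at d4 after thinning. Its calls were kept in 6, 13 and 11 of 15 alternatives at d1, d4 and d7.

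Among the lower genes, Gata6, a cardiac transcription factor, was lower at d4 (61.6 against 119 CPM, 0.515) and d7 (0.660). Speg, a kinase of the junctions between T-tubule and sarcoplasmic reticulum, was lower at d4 (0.549). Acot1, a thioesterase acting on fatty acyl-CoA, was lower at d1 (126 against 226 CPM, 0.556). At d14, Acss1, the mitochondrial acetate-activating enzyme (158 against 259 CPM, 0.609), Pccb, a subunit of propionyl-CoA carboxylase (0.594), and Lpin1, a regulator of fat metabolism (0.620), were lower. Acss1 (0.638) and Lpin1 (0.475) were also lower at d4.

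The levels were also followed over 10 bins of the remaining spots ordered by score. Nppa at d4 went from 680 CPM in the lowest bin to 2916 in the eighth, 5490 in the ninth and 19622 in the tenth. At d14 the last steps were 2045, 2277 and 9672 CPM, so that most of the increase lay in the highest bin. At d7 Nppa lay between 64.6 and 86.3 CPM in the first bins up to the sixth and then at 338, 742, 730 and 1280. Clu stood at 199 CPM in the ninth and 780 in the tenth bin at d4, and at 213 and 241 at d7. The sarcomere core sum had its lowest value in the highest bin of each section, at 78825, 61872, 82183 and 97016 CPM in time order, and so had the fatty acid oxidation sum, at 25010, 22604, 25628 and 21806 CPM.

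**Figure D5:**
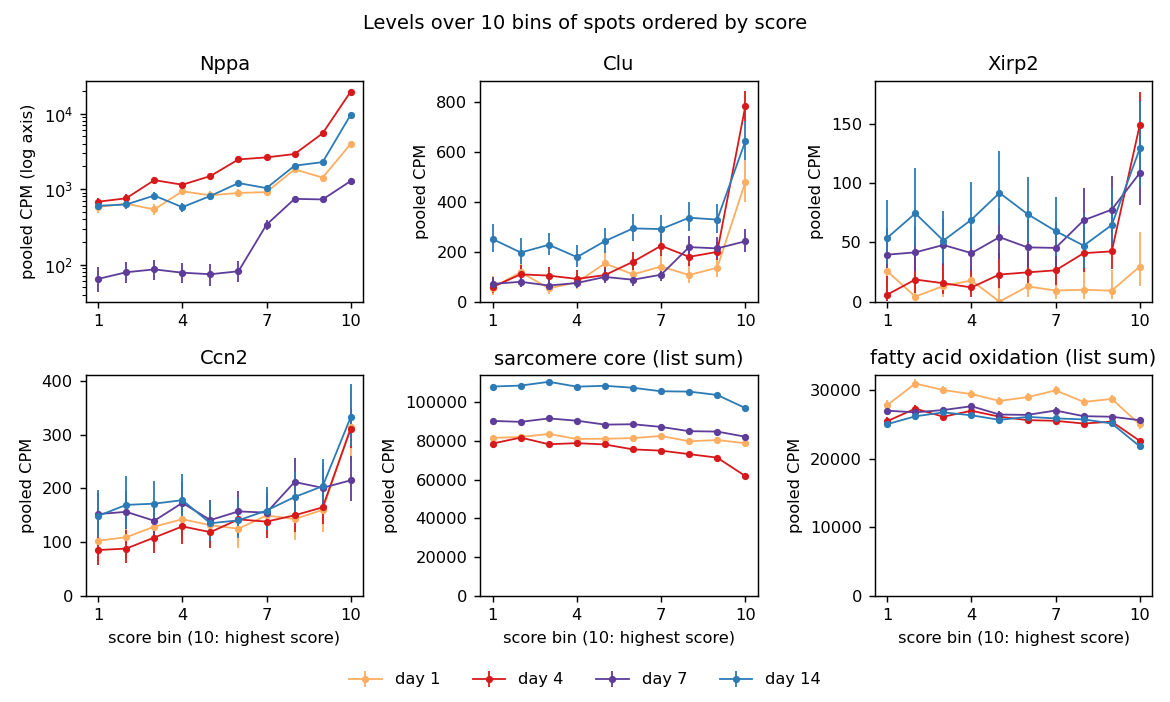
Pooled CPM over 10 bins of remaining spots ordered by the summed share of Ankrd1, Nppb and Acta1, by section, with exact Poisson 95% intervals; the Nppa axis is logarithmic and the lower panels include list sums. Nppa, Clu and Xirp2 climb most in the tenth bin at d4, and the sarcomere and fatty acid oxidation sums are lowest there.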

How the data were processed

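Visium libraries of 4 heart sections, 1 per time point, were analysed. The deposited matrices hold raw UMI counts for genes by spots. They were produced by Space Ranger 1.3.0 with mm10 per the submitters' processing notes, which also name Seurat 4.1.1; how the listed spots were selected is not given in the sources used here, and spot positions were not used. Each time point has 1 sample, so intervals cover counting error only.

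Spots with 500 or more UMIs were kept, ranked and pooled as described. CPM totals left out 8 haemoglobin, 13 mitochondrial and the 3 scoring genes. Levels carry exact Poisson and ratios exact conditional binomial (Clopper-Pearson) 95% intervals. A gene at 0 in a group entered ratios at a floor of 3 counts per group. Computation used Python 3.11.15, scipy 1.17.1 and edgeR 4.0.16 (TMM factors only). The comparison was also run on simulated pooled Poisson counts. These had no variation between spots and no choice of spots, so that run says nothing about either.

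The members, the 32 gene lists and the motifs were chosen with earlier results of these data known. Named genes were the 8 largest and 8 smallest ratios among called genes with 100 or more CPM per section, without predicted, ribosomal protein, haemoglobin, mitochondrial and sex-linked transcripts, genes called in 3 or more sections, Egr1, Cdkn1a, Agrn, the rule genes, and up to 4 members per list by UMIs or members called in 2 or more sections. Other called list genes, and Nmrk2, Icam1, Myl1 and Ptn, were chosen after their values were seen. Alternatives were all genes in the total, TMM, no or a 100 CPM minimum, 1500 UMIs per spot, the top 20%, no matrix-rich spots dropped, a score without each gene, means over spots, choosing on 1 of 2 random parts of the UMIs and measuring in the other, leaving out skeletal or atrial-marker spots, and, added after seeing the data, thinning to 2500 UMIs without shallower spots. Promoters were matched by symbol in a RefSeq table (GRCm38.p6), and gene positions by Ensembl ID in GENCODE vM21 (GRCm38). A small number of results are not reported here.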

Additional observations from a re-analysis of the deposited data

Results flagged for a closer look

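Some genes were called higher in the rich spots of 1 section and lower in those of another, and the difference between the sections was not tested. Afap1l1, an actin filament-associated protein gene, had a ratio of rich over other spots of 1.68 at d1 and 0.636 at d7. Amotl2, the Yap-binding junction protein gene, had 1.94 at d1 and 0.568 at d4. Mfap5, a microfibril gene of fibroblasts, had 0.569 at d4 and 1.72 at d14. Over all features, 36 genes were called in opposite directions in different sections, 32 of them among the 5339 genes measured in every section. Beside this, 5.86%, 8.49%, 3.58% and 6.11% of measured genes were called in either direction in time order. Whether the count exceeds what these shares alone would give was not tested.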

How the results depend on the processing

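The counts of higher and lower genes depended on the gene minimum. Without it, 407, 439, 292 and 479 genes were higher at d1, d4, d7 and d14, and at 100 CPM 34, 36, 6 and 28 were higher and 30, 38, 4 and 24 lower. With no matrix-rich spots dropped, 645, 354 and 482 genes were higher at d1, d4 and d14, and 275 were lower at d1. With TMM factors, 161 were lower at d7 and 245 at d14. With the top 20% of spots, 194 were lower at d4 and 96 at d14. Lower genes at d1 numbered 316 with means over spots and 93 when spots were chosen on 1 of 2 random parts of the UMIs. After thinning, 52 were lower at d1 and 103 at d4. The other counts stayed within 1.5 times.

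Of 128 called values of genes named in the text, each under 15 alternatives, 1497 of 1920 kept their call, 407 lost it with the direction kept, and 16 turned. After thinning these were Tnfrsf12a (0.814), Pdlim3 (0.654) and Igf2 (0.868) at d1, Qsox1 (0.962), S100a9 (1.03), Amotl2 (1.07), Fbxo32 (1.07) and Plagl1 (1.21) at d4, and Gpx3 (0.882), Aurka (0.898) and Nmrk2 (0.962) at d7. With no matrix-rich spots dropped they were Afap1l1 at d1 (0.957) and Eln at d7 (0.646). With Ankrd1 left out of the score they were Amotl2 at d1 (0.907) and Afap1l1 at d7 (1.03), and with that split of the UMIs Slc26a10 at d7 (1.22). The d7 median of the proliferation list turned to -0.13 without Ankrd1 in the score and to -0.14 after thinning, and that of the red blood cell list to 0.091 after thinning. The causes were not tested. Nppa kept its call in 15 of 15 alternatives in each section, and so did Clu except at d7 (14 of 15).

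No paired analysis was possible because each time point has 1 sample with no replicate number. With 1 heart per time point, differences between sections cannot be told apart from differences between hearts, section planes or ages. Genes with few UMIs in the rich spots, such as Egr1 at d1 and d14, are limited by depth.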

Other observations

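Some abundant differences of single sections lay outside the gene lists, and these genes were chosen after their values were seen. Nmrk2, a kinase of muscle that makes nicotinamide mononucleotide from nicotinamide riboside, stood at 103 CPM in the rich and 22.9 CPM in the other spots of d4, a ratio of 4.50 (3.34 to 6.05). At d7 its ratio was 1.64 (1.11 to 2.35), and 0.962 after thinning, and at d1, from 8 UMIs, 0.611 (0.258 to 1.24). Icam1, an adhesion molecule for leukocytes, was higher at d1 (62.9 against 17.7 CPM, 3.56), passing the gene minimum through the rich spots. Myl1, a fast myosin light chain, was higher at d4 (113 against 57.9 CPM, 1.95) and d7 (59.5 against 21.6 CPM, 2.76), next to skeletal muscle markers of 13 and 10 UMIs in all. Ptn, the growth factor pleiotrophin, was higher at d4 (259 against 160 CPM, 1.61) and d14 (56.6 against 16.8 CPM, 3.38), where it passed the gene minimum through the rich spots.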
